A study of Mus musculus with 16 samples.

Results

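The miR-29 family is represented on the array by mmu-miR-29a, mmu-miR-29b and mmu-miR-29c, which are 3 of its 650 miRNA names and 3 of the 281 miRNAs counted as expressed in these nerves. The members were chosen by name, as every spot whose systematic name is one of the 3, which gave 6 array features (2 per member) with 10 spots each. Sciatic nerves were taken from Dicer1 fl/fl Dhh-Cre positive mice, in which both Dicer1 alleles can be removed, and from Dicer1 wt/fl Dhh-Cre positive mice, which carry 1 floxed allele and served as controls. Nerves were collected at embryonic day 17 (E17), ahead of myelination, or at postnatal day 4 (P4), with 4 arrays per genotype and age and 16 arrays in all. Below, mutants are the groups labelled fl-E17 and fl-P4 and controls the groups labelled wt-E17 and wt-P4. All 4 groups come from the strain Dicer1tm1Bdh/J and carry both the Cre transgene and at least 1 floxed allele, so that no group had an intact Dicer1 locus without Cre. The Dhh promoter drives Cre in the Schwann cell lineage, while the RNA came from whole nerve, in which fewer cells of a type and less RNA per cell cannot be told apart.

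MicroRNAs of the miR-29 family are best known for repressing collagens and other proteins of the extracellular matrix, and miR-29a has been described as a repressor of Pmp22, a protein of peripheral myelin. Like nearly all miRNAs, they are cut from hairpin precursors by Dicer, and the arm that is kept guides the silencing complex to transcripts that pair with its seed. The same mature miR-29b arises from a pair of hairpins, each next to the hairpin of another member, so that miR-29a and miR-29c belong to separate transcripts that both also give miR-29b.

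The mature sequences are shown because the members differ in so few bases, which matters for reading the array values. The seed, bases 2 to 8 from the 5′ end, is in capitals, and the sequences are those of RefSeq for GRCm38.p6, where the array names correspond to the arms called mmu-miR-29a-3p, mmu-miR-29b-3p and mmu-miR-29c-3p.
mmu-miR-29a: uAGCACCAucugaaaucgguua
mmu-miR-29b: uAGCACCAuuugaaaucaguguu
mmu-miR-29c: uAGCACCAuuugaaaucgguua
All 3 share the seed AGCACCA, whose perfect match in a transcript reads UGGUGCU, and no other of the 1679 mature mouse names in the table has this seed. The sequences of mmu-miR-29a and mmu-miR-29c agree at 21 of 22 bases and differ by C10U, counted from the 5′ end of mmu-miR-29a. Against mmu-miR-29c, mmu-miR-29b differs by G18A, U21G and A22U and is 1 base longer, at 23 bases. How much of the signal of one member came from RNA of another was not tested.

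In GRCm38.p6, Mir29a lies at chr6:31062660-31062747 and Mir29b-1 at chr6:31063023-31063093, both on the minus strand with 275 bases between the hairpins and no other RefSeq gene of the table over them. Mir29b-2 lies at chr1:195037040-195037120 and Mir29c at chr1:195037547-195037634, on the plus strand with 426 bases between them. Both of the latter are inside A330023F24Rik, a long non-coding RNA gene at chr1:195017399-195037908. Whether they fall in an exon or an intron of it is not given in the table. Since the mature miR-29b of the 2 loci is identical, its signal cannot be assigned to either.

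Across the series, Feature Extraction detected between 197 and 260 miRNAs per array, and the signals of any 2 arrays of a group correlated with r between 0.962 and 0.998. The Schwann cell and myelinating glia list (miR-338-3p, miR-138, miR-204, miR-34a and others) had 7 of its 8 miRNAs expressed in some group, miR-219 being the exception, and 4, 4, 7 and 4 of the 8 were detected on all 4 arrays of E17 controls, E17 mutants, P4 controls and P4 mutants. Most of this list was chosen by the study on these arrays for such a pattern, so the counts are no independent check of the samples. The same share over all miRNAs was not counted. All E17 arrays were on 1 slide and all P4 arrays on another, with both genotypes on each, so age and slide cannot be told apart. The 4 arrays of a group are biological replicates by the study's methods. Dicer1 itself, an mRNA, is not measured by this array.

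The members were dim. On the scale used below, the log2 of the median spot signal after quantile normalization across arrays, features that were never well above background averaged 5.88, and the brightest feature of each member lay between 6.05 and 7.73. None of the 960 member spots was saturated. At such levels the background makes up much of the signal and a difference of log2 signals understates the fold, so the background-subtracted gene signal is given beside it.

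mmu-miR-29a was at 7.08, 6.92, 6.61 and 6.57 in the 4 E17 controls and at 6.62, 6.60, 6.50 and 6.68 in the 4 E17 mutants. At P4 it was at 7.18, 7.41, 7.06 and 7.02 in controls and at 7.73, 7.54, 7.44 and 7.56 in mutants. The P4 mutants were the 4 highest of the 16 arrays, while E17 controls and E17 mutants overlapped. It was well above background on every array except E17 mutant 3.

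mmu-miR-29b was at 6.22, 6.15, 6.05 and 6.11 in E17 controls and at 6.10, 6.19, 6.16 and 6.18 in E17 mutants. At P4 it was at 6.27, 6.32, 6.16 and 6.30 in controls and at 6.57, 6.47, 6.43 and 6.50 in mutants. Here too the P4 mutants were the 4 highest arrays. No E17 array was well above background for mmu-miR-29b, against 3 of 4 P4 controls and 4 of 4 P4 mutants, and its second feature cleared the background on none of the 16.

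mmu-miR-29c was at 6.38, 6.43, 6.33 and 6.19 in E17 controls and at 6.35, 6.28, 6.15 and 6.25 in E17 mutants. At P4 it was at 6.86, 6.87, 6.71 and 6.88 in controls and at 6.62, 6.67, 6.60 and 6.70 in mutants. In contrast to the other members, the P4 controls were the 4 highest arrays, just above the P4 mutants, and all P4 arrays exceeded all E17 arrays. It was well above background on all 8 P4 arrays, on 2 of 4 E17 controls and on 1 of 4 E17 mutants.

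**Figure D1:**
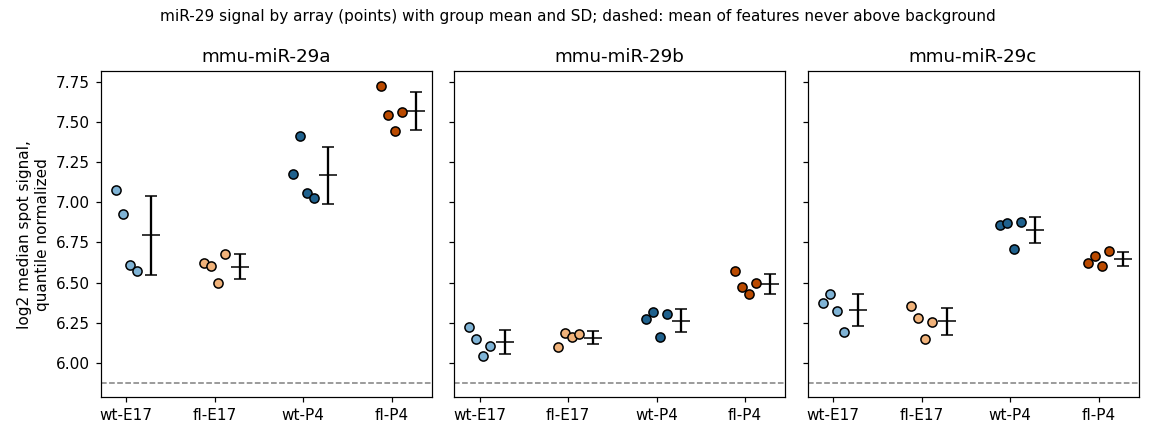
Log2 median spot signal after quantile normalization (vertical axis) of the brightest feature of each member on each of the 16 arrays (points, replicates 1 to 4 from left to right) by group, with the group mean and SD (bars, n = 4) and the mean of features never well above background (dashed line). The P4 mutants are highest for mmu-miR-29a and mmu-miR-29b, whereas the P4 controls are highest for mmu-miR-29c.

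Mutants were compared with controls at P4, when by the study's electron microscopy myelination had begun in controls but not in mutants. Loss of Dicer and lack of myelin therefore cannot be told apart here. On the normalized scale the brightest features went different ways, with mmu-miR-29a and mmu-miR-29b higher and mmu-miR-29c lower in mutants, each without overlap of the arrays. The second features of mmu-miR-29a and mmu-miR-29b overlapped between the genotypes. How many of all expressed miRNAs separate without overlap, on this scale or in gene signal, was not counted. mmu-miR-29a was at 7.17 ± 0.18 (SD, n = 4) in controls and 7.57 ± 0.12 in mutants, a log2 difference of 0.40 (SE 0.11; limma, adjusted p = 0.00959). mmu-miR-29b was at 6.26 ± 0.07 in controls and 6.49 ± 0.06 in mutants, a difference of 0.23 (SE 0.04; limma, adjusted p = 0.000799). The second feature of mmu-miR-29b, not well above background on any array, differed by 0.04 (limma, adjusted p = 0.199). For mmu-miR-29c, 6.83 ± 0.08 in controls stood against 6.65 ± 0.04 in mutants, a difference of -0.18 (SE 0.06; limma, adjusted p = 0.0164), and its second feature gave -0.20 (adjusted p = 0.00172). The difference of mmu-miR-29c rests on leaving out spots that Feature Extraction marked as outliers, since with them kept P4 mutant 3 stood at 7.17, above the controls, and the difference was -0.05 (limma, adjusted p = 0.734).

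None of the 3 differences reached 0.5 on the log2 scale, so under the call rule used here, which asks for that size and for an adjusted p up to 0.05, 0 of 3 members were called, where 21% of the 281 expressed miRNAs were. By the adjusted p alone, 2 of 3 members were higher, as were 27.4% of the expressed miRNAs, and 1 of 3 was lower, as were 26%. A member that passed by p alone was thus no exception among the expressed miRNAs. The second feature of mmu-miR-29a differed by 0.14 (adjusted p = 0.0658).

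Quantile normalization gives each array the same distribution of signals, whereas the total signal differed between the groups. Summed over all miRNAs, the background-subtracted signal averaged 134516 ± 13583 (SD, n = 4) in P4 controls and 69457 ± 11362 in P4 mutants, 1.94-fold lower without overlap. The gene signal of mmu-miR-29c was 93.1, 124, 88.8 and 94.3 in P4 controls and 44.8, 53.2, 35.1 and 51.2 in P4 mutants, a mean 2.17-fold lower in mutants without overlap. That of mmu-miR-29a was 99.7, 183, 95.6 and 80.4 in controls and 118, 109, 86.4 and 102 in mutants, which overlapped, with means of 115 ± 46.2 and 104 ± 13.4. For mmu-miR-29b the gene signal was 16.3, 22.02, 11.1 and 16.1 in controls and 23.2, 22.2, 17.9 and 21.9 in mutants, also overlapping. The mean of mutants was 0.46 times that of controls for mmu-miR-29c, 0.907 times for mmu-miR-29a and 1.30 times for mmu-miR-29b, beside 0.516 times for the sum.

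**Figure D2:**
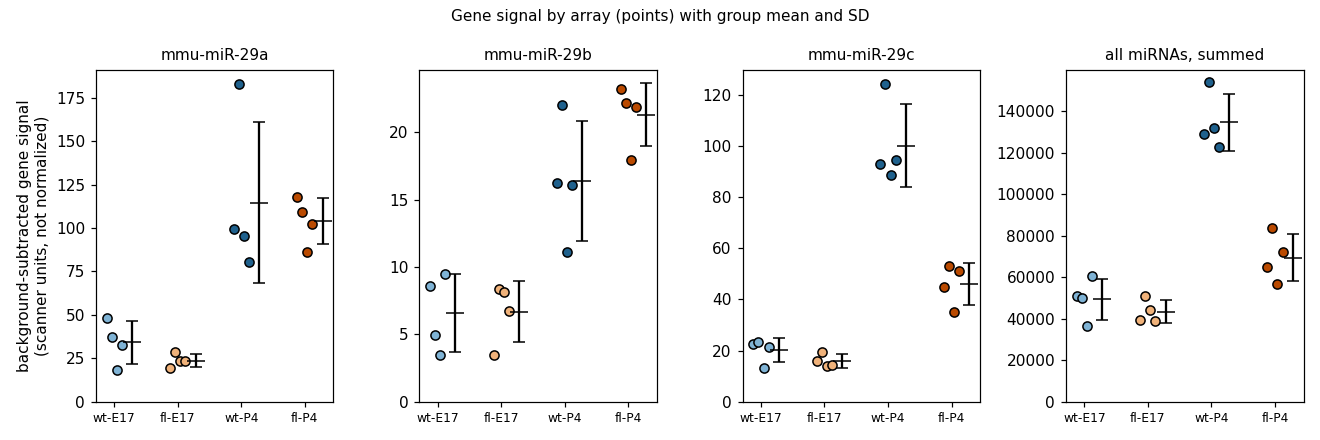
Background-subtracted gene signal in scanner units without normalization between arrays (vertical axes, each starting at 0) for each member and summed over all miRNAs, by array (points) with group mean and SD (bars, n = 4). From P4 controls to P4 mutants, mmu-miR-29c and the sum are lower without overlap, while the arrays overlap for mmu-miR-29a and mmu-miR-29b.

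How the arrays were scaled decided the sign of 2 members. With no normalization the difference of mmu-miR-29a at P4 was -0.08 in place of 0.40 and that of mmu-miR-29c -0.56, and with scaling to the 75th percentile that of mmu-miR-29c was 0.33. These scalings shifted the median of all expressed miRNAs by -0.19 and 0.70, against 0.06 after quantile normalization. Measured from that median, mmu-miR-29a was higher in mutants by 0.11 to 0.37, mmu-miR-29b higher by 0.15 to 0.86 and mmu-miR-29c lower under the 7 scalings tried, with values from -0.68 to -0.07. Of the 7, no normalization, 75th-percentile and positive-control scaling move all miRNAs of an array alike and so share 1 value once the median is subtracted, which leaves 5 distinct values. The value nearest 0 for mmu-miR-29c came from the table of normalized intensities that the authors deposited, in which P4 mutant 3 stood at 7.18 and the other P4 mutants at 6.68 to 6.77. On that array 1 of the 10 spots read 13.04 against a median of 6.49. The mean of its quantile-normalized spots was 7.17 with all 10 and 6.59 without the bright one, and the values above leave out 2 marked spots. In the deposited table the difference of mmu-miR-29c was -0.03 (limma, adjusted p = 0.834), and that of mmu-miR-29b was 0.19 (adjusted p = 0.0509).

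**Figure D3:**
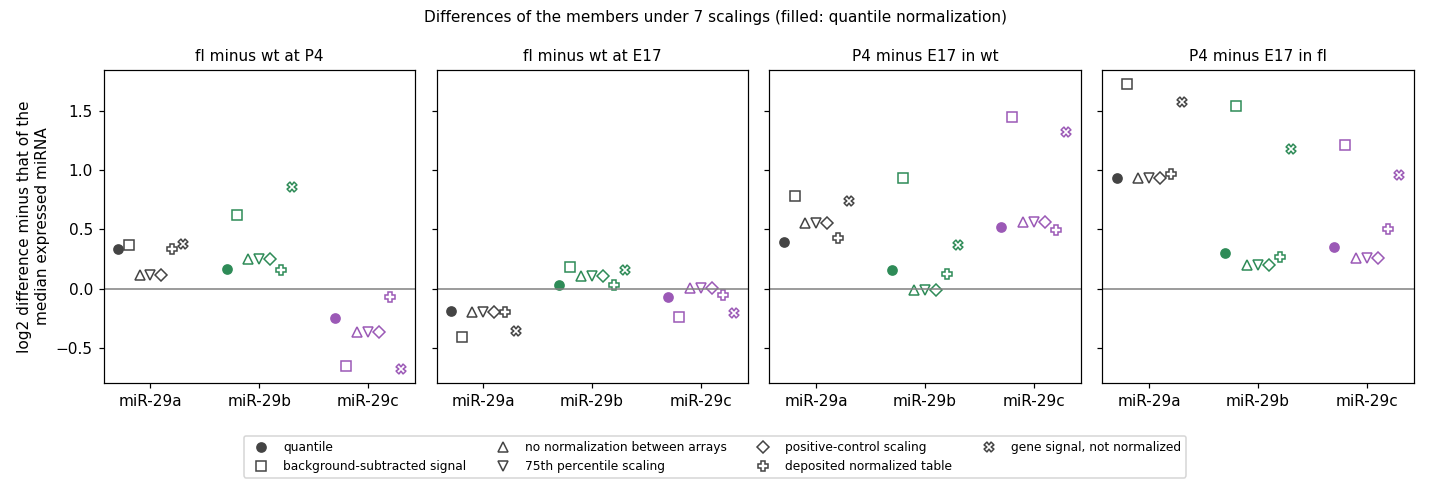
Log2 difference of each member less the log2 difference of the median expressed miRNA (vertical axis) in 4 comparisons under 7 ways of scaling the signals (symbols), of which 3 coincide after the subtraction. At P4, mmu-miR-29c lies below 0 and mmu-miR-29a and mmu-miR-29b above 0 under each scaling, and from E17 to P4 mmu-miR-29a and mmu-miR-29c lie above 0, while mmu-miR-29b in controls lies at -0.02 for the value that 3 of the scalings share.

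Ratios of members within an array do not depend on a factor common to that array, whereas quantile normalization and background subtraction can change them. The log2 signal of mmu-miR-29a less that of mmu-miR-29c was 0.32, 0.54, 0.35 and 0.15 in P4 controls and 1.11, 0.88, 0.84 and 0.87 in P4 mutants. It was thus 0.58 higher in mutants without overlap (exact two-sided permutation test, p = 0.0286). That of mmu-miR-29c less mmu-miR-29b was 0.56 ± 0.02 (SD, n = 4) in P4 controls and 0.15 ± 0.07 in P4 mutants, 0.41 lower without overlap (exact permutation test, p = 0.0286). For mmu-miR-29a less mmu-miR-29b the difference of 0.17 was within the spread (exact permutation test, p = 0.114). In this exact test of 4 arrays against 4, p = 0.0286 is the smallest value this test can give, and adjusted over the 12 ratios tested it was 0.0686, so that no ratio passed the correction. From background-subtracted signals the mmu-miR-29a to mmu-miR-29c ratio differed by 1.02 (exact permutation test, p = 0.0286), and from the deposited table by 0.40 (p = 0.0857). Of the 12 ratios, 5 had an unadjusted p of at most 0.05, against 2 from the deposited values.

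**Figure D4:**
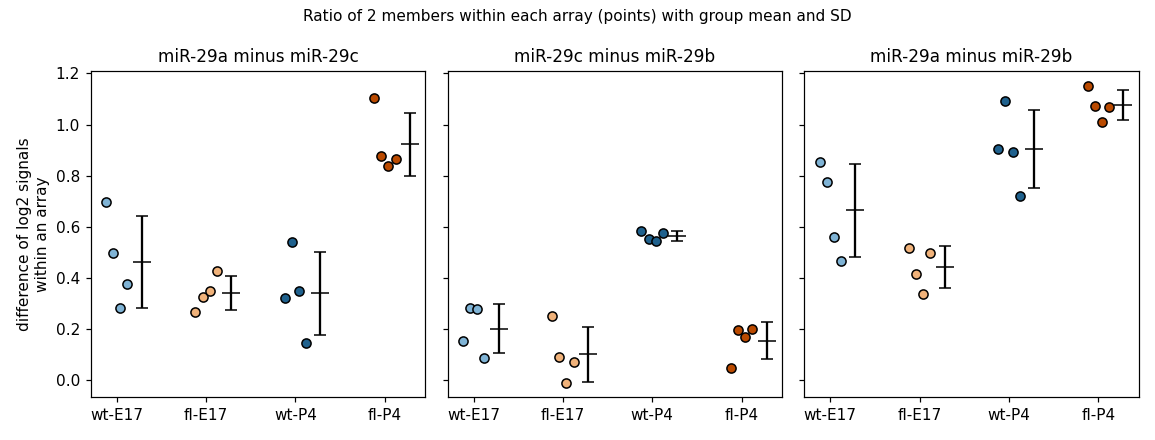
Difference of the log2 signals of 2 members within each array (vertical axis, brightest features) by group, for each of the 3 pairs (points, 16 arrays), with group mean and SD (bars, n = 4), where the heights depend on the features and only changes between groups are to be read. The P4 mutants stand apart from the P4 controls for mmu-miR-29a less mmu-miR-29c and for mmu-miR-29c less mmu-miR-29b.

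At E17, before myelination, the same comparison found no member that passed. The log2 difference of mutants from controls was -0.19 for mmu-miR-29a (SE 0.11; limma, adjusted p = 0.286), 0.03 for mmu-miR-29b (SE 0.04; adjusted p = 0.743) and -0.07 for mmu-miR-29c (SE 0.06; adjusted p = 0.449). For each member the arrays of the 2 genotypes overlapped. They overlapped in gene signal too, which ran from 18.5 to 48.4 in controls and from 19.2 to 28.6 in mutants for mmu-miR-29a, and from 13.2 to 23.4 and from 13.9 to 19.6 for mmu-miR-29c. For mmu-miR-29b it ran from 3.44 to 9.45 in controls and from 3.46 to 8.35 in mutants. Thus 0 of 3 members were called, against 3.91% of the expressed miRNAs, and 0 of 3 passed by the adjusted p alone, against 12.5%. Summed signals of all miRNAs overlapped at this age, at 49387 ± 9818 (SD, n = 4) in controls and 43361 ± 5520 in mutants. The 3 within-array ratios overlapped between the genotypes too, with differences between -0.22 and -0.10 (exact permutation tests, p from 0.0857 to 0.257). With 75th-percentile scaling, mmu-miR-29b (0.43, adjusted p = 0.0344) and mmu-miR-29c (0.33, adjusted p = 0.0370) passed the adjusted p in limma but not the size limit, and without normalization the mmu-miR-29a to mmu-miR-29b ratio differed by -0.30 (exact permutation test, p = 0.0286).

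The mutant effect at P4 less that at E17 was tested in the same fit. For mmu-miR-29a it was 0.59 (SE 0.16; limma, adjusted p = 0.0208), which passed both limits, and it stayed between 0.50 and 0.68 when any 1 array was left out. For the second feature of mmu-miR-29a it was 0.19 (limma, adjusted p = 0.128). For mmu-miR-29b it was 0.20 (SE 0.06; adjusted p = 0.0490), and leaving out any array other than E17 control 3, P4 control 2 and P4 mutant 3 took its adjusted p above 0.05, to at most 0.0996. For mmu-miR-29c it was -0.11 (SE 0.08; adjusted p = 0.408). Hence 1 of 3 members was called, where 8.9% of the expressed miRNAs were, and 2 of 3 were higher by the adjusted p alone, where 4.27% were. The call of mmu-miR-29a was lost when its features were averaged (0.39, adjusted p = 0.0270), with background-subtracted signals (1.03, adjusted p = 0.0745), with the normexp background correction (0.41, adjusted p = 0.0143), by gene signal (0.39, adjusted p = 0.568) and with scaling to the positive controls (0.22), and without normalization the difference was -0.07.

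Development from E17 to P4 was compared within each genotype. In controls, mmu-miR-29c went from 6.33 ± 0.10 (SD, n = 4) to 6.83 ± 0.08, a difference of 0.497 that lay just under the limit of 0.5 (SE 0.06; limma, adjusted p = 7.86e-06), and it passed the limit, at 0.51 to 0.54, when E17 control 1, E17 control 2 or P4 control 3 was left out. mmu-miR-29a was 0.37 higher at P4 in controls (SE 0.11; adjusted p = 0.0149), with 1 E17 control, at 7.08, among the P4 values. Without E17 control 3 or E17 control 4, its adjusted p was 0.0528 or 0.0532. mmu-miR-29b was 0.13 higher (SE 0.04; adjusted p = 0.0268), but it was not well above background at E17 on any array, the bound is under 1 and no fold is given. Leaving out E17 control 3 or 4 or any of P4 controls 1, 2 and 4 took its adjusted p to between 0.0592 and 0.0880. In this comparison 0 of 3 members were called, where 18.1% of the expressed miRNAs were, and 3 of 3 were higher by the adjusted p alone, where 25.3% were. Fitted on the control arrays alone, limma gave mmu-miR-29a and mmu-miR-29b adjusted p-values of 0.0613 and 0.0664.

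In mutants, mmu-miR-29a rose from 6.60 ± 0.08 (SD, n = 4) at E17 to 7.57 ± 0.12 at P4 without overlap, a difference of 0.97 (SE 0.11; limma, adjusted p = 2.11e-05), which passed both limits and became -0.10 with scaling to the positive controls. The second feature of mmu-miR-29a differed by 0.41 (limma, adjusted p = 9.24e-05), which was under the size limit. mmu-miR-29c was 0.39 higher at P4 (SE 0.06; adjusted p = 0.000144) and mmu-miR-29b 0.33 higher (SE 0.04; adjusted p = 8.02e-05), both without overlap and both under the limit. Because mmu-miR-29b was not well above background in any E17 mutant, its P4 mean is only a bound of at least 1.06-fold higher, with the E17 arrays set to the smallest signal that cleared the background on them. Of the members, 1 of 3 was called, where 10.7% of the expressed miRNAs were, and 3 of 3 were higher by the adjusted p alone, where 17.1% were. How many of the expressed miRNAs separate the ages without overlap was not counted. The 2 developmental comparisons share no arrays with each other, but each shares its P4 and E17 arrays with the genotype comparisons above.

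Scaling also bore on the developmental differences. Scaling to the positive controls turned the differences of all 3 members to between -0.90 and -0.10, in controls and in mutants, and scaling to the 75th percentile turned all 3 in controls and mmu-miR-29b and mmu-miR-29c in mutants. The first moved the median of all expressed miRNAs by -0.88 in controls and -1.04 in mutants. Measured from that median, mmu-miR-29a was higher at P4 by 0.39 to 0.78 in controls and by 0.93 to 1.73 in mutants over the 5 distinct values, and mmu-miR-29c by 0.49 to 1.45 and by 0.26 to 1.21. mmu-miR-29b ranged from -0.02 to 0.93 in controls and from 0.19 to 1.54 in mutants. In unnormalized gene signal, without overlap of the arrays, the P4 mean exceeded the E17 mean 3.36-fold in controls and 4.403-fold in mutants for mmu-miR-29a. For mmu-miR-29c, well above background on 3 of 8 E17 arrays, these folds were 4.98 and 2.88, beside 2.72 and 1.60 for the summed signal of all miRNAs. The number of other miRNAs whose gene signal separates the ages without overlap was not counted.

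The passenger strands of the same hairpins were measured as miR-29a*, miR-29b* and miR-29c* on 10 features. None of them was well above background on any array by the majority of its spots, and 0 of the 3 counted as expressed. The gene signal of miR-29c*, which was detected on no array, was 6.90 to 10.1 in P4 controls and 2.93 to 5.50 at E17. In P4 mutants it was 5.86 to 7.15, overlapping the P4 controls. The gene signal of miR-29b* did not exceed 1.23 on any array. After quantile normalization the features of miR-29c* averaged 5.97 and 6.06 in P4 controls and 5.99 and 6.04 in P4 mutants.

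The miRNAs whose pattern over the 16 arrays was most like that of each member, the other members left out, are given as a description. For mmu-miR-29c they were miR-195 (Pearson r = 0.969), miR-497 (r = 0.962) and miR-100 (r = 0.939). For mmu-miR-29a they were miR-221 (r = 0.925), miR-155 (r = 0.857) and miR-365 (r = 0.823), and for mmu-miR-29b miR-30b* (r = 0.901), miR-365 (r = 0.877) and miR-551b (r = 0.871). Among the members, mmu-miR-29a correlated with mmu-miR-29b at r = 0.919 and with mmu-miR-29c at r = 0.751, and mmu-miR-29b with mmu-miR-29c at r = 0.591. These 16 points fall into 4 groups on 2 slides and share 1 normalization. From controls to mutants at P4, miR-195, miR-497 and miR-100 differed by -0.48, -0.28 and -0.55. The differences of miR-221, miR-155, miR-365, miR-30b* and miR-551b were 0.10, 0.08, 0.22, 0.47 and 0.17. That of miR-221 did not pass (limma, adjusted p = 0.0873). These miRNAs were picked by their correlation over the same arrays, so a shared sign follows largely from that choice and is no independent evidence.

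Other miRNAs known for regulating matrix proteins or fibrosis were listed for comparison, and 12 of the 16 listed were expressed. At P4, 2 of the 12 were called higher in mutants, miR-199a-5p (1.14) and miR-214 (1.09), and 1 lower, miR-30c (-0.74), with a median difference of -0.07 beside 0.06 for all expressed miRNAs, of which 21% were called. At E17, 1 of the 12 was called higher, miR-199a-5p (0.69), and none lower, where 3.91% of the expressed miRNAs were called. The median of the list was 0.05, beside -0.004 for all expressed miRNAs. From E17 to P4 in controls, miR-30c was called higher (0.71) and miR-199a-5p (-0.53) and miR-214 (-1.15) lower, where 18.1% of the expressed miRNAs were called. In mutants, miR-19a (-0.52) and miR-19b (-0.90) of the miR-17-92 cluster were called lower, where 10.7% of the expressed miRNAs were called. The medians of the list over the developmental comparisons were -0.02 in controls and -0.02 in mutants, beside -0.02 and 0.03 for all expressed miRNAs.

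Markers of the cells in the nerve also differed between the genotypes at P4, and some of them at E17. Most of the Schwann cell list was chosen by the study on these same arrays, for being higher at P4 than at E17 in controls and lower in P4 mutants, so its directions below follow from that choice and are no independent evidence. All 7 of its expressed miRNAs were called lower in P4 mutants, with a median of -2.04 beside 0.06 for all expressed miRNAs, and their summed gene signal was 7958 to 8352 in P4 controls and 426 to 752 in P4 mutants. Of the fibroblast and smooth muscle list, 4 of 5 expressed miRNAs were called higher, among them miR-199a-5p and miR-214, which are also on the matrix list above. The share of the fibroblast and smooth muscle list in the summed miRNA signal was 4.22% to 4.89% in P4 controls and 9.42% to 11.98% in P4 mutants. Its summed gene signal overlapped, at 5505 to 7541 in P4 controls and 5352 to 10018 in P4 mutants. Of the expressed miRNAs of the endothelial, erythroid and leukocyte lists, 1 of 2, 1 of 3 and 1 of 3 were called higher (miR-126-3p, miR-451 and miR-223). Of the skeletal muscle and neuron lists, 0 of 4 and 0 of 4 were called. For comparison, 21% of all expressed miRNAs were called in either direction at P4. At E17 the share of the fibroblast and smooth muscle list was 4.53% to 7.58% in controls and 8.83% to 9.81% in mutants. Called higher in E17 mutants were miR-199a-5p of that list, miR-486 of the erythroid and miR-142-3p of the leukocyte list. Of the glial, endothelial, skeletal muscle and neuron lists none was called at E17, where 3.91% of all expressed miRNAs were. Fibroblast and smooth muscle markers miR-145 and miR-214* and leukocyte markers miR-142-5p and miR-150 were not among the expressed miRNAs. From E17 to P4 in controls 6 of the 7 glial miRNAs were called higher, where 18.1% of all expressed miRNAs were called in either direction. In mutants 0 of the 7 were called higher and 2 lower, where 10.7% were called. The part of these differences in the values of mmu-miR-29a, mmu-miR-29b and mmu-miR-29c was not tested.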

How the data were processed

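Total RNA of each nerve sample was labelled with Cy3 and hybridized to 1 Agilent mouse miRNA array. The authors deposited the spot intensity of every array from Agilent Feature Extraction 10.5.1.1 (per the submitters' processing notes), not normalized between arrays, and a table of quantile-normalized probe intensities with flags. The log2 of the median spot intensity was quantile normalized over 13000 non-control spots and averaged per feature without the spots marked as outliers (31 of 960 member spots). Expressed miRNAs were detected in some group on a share of its arrays of 0.5 or more, which gave 681 features of 281 miRNAs. The group means were fitted with limma 3.58.1 (R 4.3.3) on all 16 arrays, in place of the methods' t-test, and p-values were adjusted by Benjamini-Hochberg over the 681 features. Each member is given by its feature with the highest mean. The text names the members, their passenger strands, the 3 most correlated miRNAs per member and list members. A feature was well above background on an array where over 0.5 of its spots were. The 7 scalings were quantile, background-subtracted, unnormalized, 75th percentile, positive-control, the deposited table and unnormalized gene signal, where unnormalized, 75th percentile and positive-control values coincide once the median is subtracted. Members and lists were chosen with earlier results of these data known. The number of arrays limits the precision. Steps were tested on simulated data.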

Additional observations from a re-analysis of the deposited data

Results flagged for a closer look

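For mmu-miR-29c, P4 control 3 stood apart from the other P4 controls on the normalized scale, at 6.71 with a gap of 0.874 of the range of the group, and P4 control 2 stood apart in gene signal, at 124 with a gap of 0.844 of the range. Both gaps exceed the limit of Dixon's test for 4 arrays. In all, 24 sets of 4 values were examined, and chance alone marks about 1 in 20. By the brightest features, the mutant effect differed between the ages for mmu-miR-29a, with a log2 difference of 0.59 (adjusted p = 0.0208 in limma), and for mmu-miR-29b, of 0.20 (adjusted p = 0.0490). The second features of these members gave 0.19 (limma, adjusted p = 0.128) and 0.05 (adjusted p = 0.365). The passenger strand miR-29a*, outside the comparisons above, was detected by Feature Extraction on P4 mutant 3 alone, with a gene signal of 17.6 against at most 2.84 on the other arrays. On that array 4 of its 20 spots were well above background, and all 4 were marked as outliers.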

How the results depend on the processing

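The counts that follow are of the 3 members called. For mutants less controls at P4, 0 with quantile normalization became 1 with background subtraction (mmu-miR-29b, higher at 0.87). It also became 1 without normalization and by unnormalized gene signal (mmu-miR-29c, lower at -0.56 and -1.13). The count was 2 with 75th-percentile scaling (mmu-miR-29a and mmu-miR-29b, higher) and 3 without the log2 limit. At E17 the count was 0 under every alternative. From E17 to P4 in controls, 0 became 3, all higher, with background subtraction, without normalization, by gene signal and without the log2 limit. The count was 1 with 75th-percentile or positive-control scaling. There mmu-miR-29b was called lower at P4, and the other members also went down but were not called. It was 1 with the outlier spots kept (mmu-miR-29c, 0.50), and 0 to 1 when 1 array was left out. In mutants, 1 became 3 with background subtraction, by gene signal and without the log2 limit, 2 with positive-control scaling (mmu-miR-29b and mmu-miR-29c, lower), 2 with the deposited table or the outlier spots kept (mmu-miR-29a and mmu-miR-29c, higher), and 0 at a log2 limit of 1. For the difference between the mutant effects, 1 became 0 with background subtraction, normexp, positive-control scaling, averaged features, gene signal or a log2 limit of 1, and 2 without the log2 limit. Without normalization it stayed at 1, but the member called was mmu-miR-29c (-0.75) in place of mmu-miR-29a. Of the 12 ratios, 5 had an unadjusted p of at most 0.05, against 6 with averaged features, 7 without normalization, 3 with background subtraction and 2 with the deposited table. The normexp, gene-signal and kept-spot alternatives were chosen after seeing the data.

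These differences changed sign. Without normalization, the genotype difference of mmu-miR-29a at P4 was -0.078 and that of mmu-miR-29c at E17 0.20, and the difference between the ages was -0.075 for mmu-miR-29a and -0.24 for mmu-miR-29b. By gene signal, mmu-miR-29a at P4 was at -0.074. With 75th-percentile scaling, the genotype difference of mmu-miR-29c was 0.33 at P4 and 0.33 at E17 and that of mmu-miR-29a at E17 0.13. The differences from E17 to P4 became -0.038, -0.61 and -0.033 for mmu-miR-29a, mmu-miR-29b and mmu-miR-29c in controls, and -0.10 for mmu-miR-29b and -0.033 for mmu-miR-29c in mutants. With positive-control scaling they became -0.32, -0.90 and -0.32 in controls and -0.10, -0.84 and -0.78 in mutants, and mmu-miR-29c at E17 was at 0.20. With normexp, mmu-miR-29b at E17 was at -0.0028, and in the deposited table the difference between the ages for mmu-miR-29c was 0.022, and with the outlier spots kept 0.011. The ratio of mmu-miR-29a to mmu-miR-29b changed by -0.26 at P4 and by -0.15 with age in controls from background-subtracted signals, and by -0.14 at P4 without normalization, and that of mmu-miR-29c to mmu-miR-29b by -0.33 with age in mutants from background-subtracted signals. The cause was not tested.

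The study's methods describe pairs of littermates, but the labels do not say which arrays form a pair. Replicate numbers could not be shown to pair the samples, since the deviations of same-numbered arrays correlated between -0.519 and 0.459. With the replicate block the counts were 0, 0, 0, 1 and 1, so no call changed, and the adjusted p of mmu-miR-29b for the difference between the ages was 0.0670. The filters, array weights, the methods' t-test (before and after Benjamini-Hochberg) and fits of only 2 groups changed no count either. After Benjamini-Hochberg, however, that t-test gave mmu-miR-29a and mmu-miR-29b adjusted p-values of 0.105 and 0.0867 with age in controls. The limma fit of only those 2 groups gave 0.0613 and 0.0664. Signals close to background limit all folds of mmu-miR-29b and those of mmu-miR-29c at E17.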
